A study of Homo sapiens with 14 samples.

Results

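Genes moved the same way by ferrostatin-1 and by liproxstatin-1, with and without TNF, were sought in HT-29, a cell line from a human colorectal carcinoma. The 9 libraries of cells given either compound were set against the 5 libraries without a compound in an additive model blocked by TNF. A gene was taken as shared when its adjusted p was below 0.05 and its log2 fold change had the same sign for each compound over its own baseline in both TNF states. This held for 20 of 22179 genes tested. The 9 libraries were 2 of ferrostatin-1, 2 of liproxstatin-1, 3 of TNF with ferrostatin-1 and 2 of TNF with liproxstatin-1, and the other 5 were 3 of control and 2 of TNF. Each compound was given at 20 uM and TNF at 100 ug/ml as labelled, for 72 h, and controls were kept in medium with 0.1% DMSO. All cells were wild type as labelled and of the same line. The study used TNF to induce apoptosis and gave the compounds without TNF to see what they do to cells at rest. Its design speaks of technical replicates, so p-values measure the spread between these libraries, which may be technical.

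Ferroptosis is an iron-dependent form of cell death in which polyunsaturated phospholipids of membranes are peroxidised. Ferrostatin-1, an aromatic amine with an ethyl ester, and liproxstatin-1, a spiro-quinoxaline amine with a chlorobenzyl group, trap the radicals that carry the peroxidation and so block this death. Cells limit it themselves through glutathione and GPX4, through reductases such as those of the NRF2 programme, and through monounsaturated fatty acids, made by the desaturase SCD and activated by the acyl-CoA synthetase ACSL3, which displace the oxidisable ones from phospholipids.

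The libraries held 59913850 to 75838597 counts each. The 12 intestinal epithelial markers (12 of 12 with counts) summed to 10640 to 12180 CPM (counts scaled to the size of the library) with a compound, against 11690 to 12510 CPM in controls, and to 9391 to 11300 CPM with TNF and a compound, against 11700 to 14060 CPM with TNF. Most of this came from the keratins KRT8 (4787 to 7361 CPM over the libraries) and KRT18 (2658 to 4276 CPM). EPCAM had 427 to 543 CPM, CDH1 306 to 670 CPM and CDX2 4.44 to 12.2 CPM. CDH17, at 0.145 to 2.02 CPM, and CDX1, at 0 to 0.397 CPM, were near or at 0. Fibroblast markers (7 of 7 with counts) summed to 4.45 to 16.6 CPM with a compound against 3.83 to 13.9 CPM in controls, and to 2.48 to 14.5 CPM with TNF and a compound against 25.1 to 45.9 CPM with TNF. Leukocyte markers (6 of 6 with counts) summed to 971 to 1039 CPM with a compound against 845 to 1124 CPM in controls, and to 787 to 1164 CPM with TNF and a compound against 868 to 988 CPM with TNF, nearly all of it from LYZ. Endothelial markers (4 of 4 with counts) summed to 0.905 to 37.9 CPM with a compound against 7.94 to 25.5 CPM in controls, and to 2.64 to 46.0 CPM with TNF and a compound against 8.79 to 9.23 CPM with TNF. The part of these markers in the results was not tested. The libraries of TNF stood apart from each other (their counts gave a chi-square per degree of freedom of 227, and those within each other group 16.1 to 82.6), and TNF library 1 lay at -77.7 on the second principal component, against -8.1 to 25.3 for the others. The number of shared genes rested on single libraries: it was 56 without TNF library 1 (all 20 among them), 31 without TNF library 3 (15 among them) and 25 without ferrostatin-1 library 1 (15 among them). Without any other library it fell to between 3 (without control library 1) and 10 (without control library 3).

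Of the 20 genes, 11 were higher with a compound, by 1.36-fold (IDH1) to 2.51-fold (AKR1C1), and 9 were lower, to between 0.776 (MT-TN) and 0.625 (MELTF) of the level without a compound. The rises included genes of fatty acid desaturation and activation (SCD, ACSL1 and ACSL3), cytosolic enzymes that make NADPH (ME1 and IDH1), the aldo-keto reductase AKR1C1, the LXR target MYLIP and the surface antigen CEACAM5. The falls included 3 neighbouring mitochondrial tRNA genes. Calls in this model covered 0.0902% of the genes tested (0.0496% higher and 0.0406% lower), 3783 genes had an unadjusted p below 0.05, DESeq2 with the same rule gave 1163 shared genes with all 20 among them, and the median log2 fold change of all genes was -0.02. All 20 called genes had the same sign in the 4 comparisons with a baseline, as did 28.6% of all genes. For all 20, every compound library lay on the same side of every library without a compound within each TNF state, as for 3.46% of all genes. The members were chosen by a test on the same libraries, so these counts are a description. Gene positions are those of the deposited table, with the genome build not given in the sources used here, and levels are normalized CPM by library in order of library number.

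**Figure D1:**
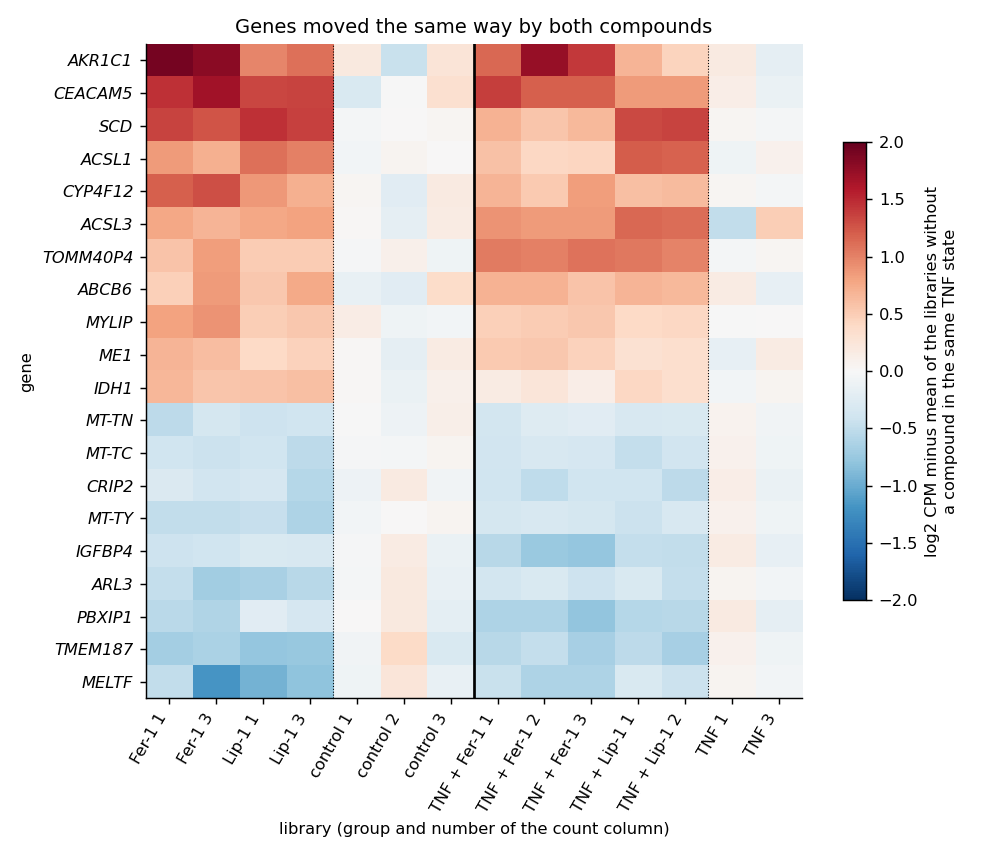
Level of each of the 20 shared genes in each library, as log2 CPM minus the mean of the libraries without a compound in the same TNF state (colour scale, from -2 to 2). Libraries run along the horizontal axis with those without TNF left of the thick line, and compound libraries stand left of the dotted line in each block. The 11 upper genes are red and the 9 lower genes blue in all 9 compound libraries.

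Among the 11 risen genes, SCD, ACSL1 and ACSL3 act in the desaturation and activation of fatty acids. SCD, at chr10:100347233-100364826 on the plus strand, encodes the desaturase that makes monounsaturated from saturated fatty acids. It had 895 and 837 CPM with ferrostatin-1 and 967 and 900.2 CPM with liproxstatin-1, against 341, 349.9 and 359 CPM in controls. With TNF, SCD had 747, 675 and 719 CPM with ferrostatin-1 and 1149 and 1181 CPM with liproxstatin-1, against 471 and 450.4 CPM with TNF alone. Every compound library was above every library without a compound, in each TNF state and over both. The rise was 2.26-fold over both states (1.17 on the log2 scale, SE 0.14, adjusted p = 0.00572, edgeR's quasi-likelihood test with Benjamini-Hochberg adjustment). It was called in all 4 comparisons of a compound with its own baseline, at log2 fold changes of 1.31 and 1.42 for ferrostatin-1 and liproxstatin-1 without TNF, and of 0.63 and 1.34 for ferrostatin-1 and liproxstatin-1 with TNF.

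ACSL1 and ACSL3 encode long-chain acyl-CoA synthetases, which activate fatty acids for use in lipids or for oxidation, and ACSL3 is best known for supplying lipid droplets and phospholipids with monounsaturated acids. ACSL1, at chr4:184755595-184826119 on the minus strand, had 37.4 and 34.0 CPM with ferrostatin-1 and 44.6 and 42.0 CPM with liproxstatin-1, against 20.0, 21.6 and 20.8 CPM in controls. With TNF, ACSL1 had 56.7, 50.6 and 51.0 CPM with ferrostatin-1 and 87.9 and 85.8 CPM with liproxstatin-1, against 35.8 and 40.1 CPM with TNF alone. Liproxstatin-1 libraries were the higher of the compound libraries in both states, and no compound library overlapped its baseline. ACSL3, at chr2:222860942-222942222 on the plus strand, had 284 and 266 CPM with ferrostatin-1 and 286 and 292 CPM with liproxstatin-1, against 169.7, 148 and 187 CPM in controls. With TNF, ACSL3 had 201, 196 and 195 CPM with ferrostatin-1 and 239.6 and 235 CPM with liproxstatin-1, against 77.3 and 151 CPM with TNF alone. The groups did not overlap, although the TNF libraries themselves were far apart. The log2 fold change over both states was 0.87 (SE 0.14, adjusted p = 0.0367) for ACSL1 and 0.82 (SE 0.13, adjusted p = 0.0351) for ACSL3. Of the 20 genes, ACSL1 and SCD were those called in all 4 comparisons with a baseline.

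ME1 and IDH1 encode cytosolic enzymes that make NADPH, the reducing power of fatty acid synthesis and of glutathione recycling. ME1, at chr6:83210402-83431051 on the minus strand, had 128 and 122 CPM with ferrostatin-1 and 104 and 109.8 CPM with liproxstatin-1, against 80.3, 69.9 and 89.3 CPM in controls. With TNF, ME1 had 94.7, 95.6 and 90.3 CPM with ferrostatin-1 and 81.1 and 82.6 CPM with liproxstatin-1, against 58.7 and 73.6 CPM with TNF alone. The ME1 groups did not overlap in either state, and the log2 fold change was 0.49 (SE 0.085, adjusted p = 0.0478). IDH1, at chr2:208236229-208266074 on the minus strand, had 309 and 286 CPM with ferrostatin-1 and 289 and 295 CPM with liproxstatin-1, against 199, 179 and 209 CPM in controls. With TNF, IDH1 had 170.1, 180.1 and 167 CPM with ferrostatin-1 and 202 and 192 CPM with liproxstatin-1, against 146 and 157 CPM with TNF alone. IDH1 showed the smallest rise of the 11, 0.44 (SE 0.076, adjusted p = 0.0478). With TNF its gap was narrow, and the difference there missed the threshold (0.26, adjusted p = 0.0751). Both genes overlap annotated genes of the opposite strand, as do ACSL1, ACSL3, MELTF, TMEM187 and TOMM40P4. ACSL1, MYLIP, ABCB6, PBXIP1 and TMEM187 each overlap 1 annotated gene of their own strand. These values are uncertain to that extent, with the strand setting of the counting not given in the sources used here.

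Promoter sequence is shown for SCD and ACSL3, the risen genes of fatty acid desaturation and activation that hold a CCAAT box, and for ME1 and ABCB6, the members that hold the core of an antioxidant response element, the NRF2 site. Each is the 250 bases before the start that RefSeq lists first for the gene, 5′ to 3′ on the strand of the gene, on build GRCh38.p14, with each motif in capitals.
SCD at chr10:100346983-100347232, plus strand: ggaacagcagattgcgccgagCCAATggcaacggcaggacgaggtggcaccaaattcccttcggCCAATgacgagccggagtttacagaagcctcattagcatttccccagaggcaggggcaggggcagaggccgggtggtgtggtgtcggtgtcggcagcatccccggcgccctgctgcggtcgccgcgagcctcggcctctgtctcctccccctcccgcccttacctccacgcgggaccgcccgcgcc
ACSL3 at chr2:222860786-222861035, plus strand: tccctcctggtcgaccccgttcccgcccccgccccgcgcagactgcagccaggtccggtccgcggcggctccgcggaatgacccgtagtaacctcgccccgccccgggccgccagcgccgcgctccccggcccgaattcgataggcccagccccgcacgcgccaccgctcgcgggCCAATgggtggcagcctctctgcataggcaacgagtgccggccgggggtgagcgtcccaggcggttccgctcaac
ME1 at chr6:83431052-83431301, minus strand: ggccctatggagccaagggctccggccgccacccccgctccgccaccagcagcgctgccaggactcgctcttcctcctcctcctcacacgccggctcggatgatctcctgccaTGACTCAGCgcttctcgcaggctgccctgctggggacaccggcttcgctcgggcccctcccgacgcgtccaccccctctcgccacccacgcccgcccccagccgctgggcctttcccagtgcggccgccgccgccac
ABCB6 at chr2:219218959-219219208, minus strand: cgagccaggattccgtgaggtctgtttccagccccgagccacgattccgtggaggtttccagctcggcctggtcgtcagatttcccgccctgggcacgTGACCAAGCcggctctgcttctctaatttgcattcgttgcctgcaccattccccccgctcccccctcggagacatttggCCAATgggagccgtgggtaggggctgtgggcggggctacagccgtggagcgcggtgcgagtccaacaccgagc
Of the 20 genes, 15 had such a sequence, among 27305 promoters. The antioxidant response core, TGACNNNGC, was found on either strand in 2 of the 15 and in 11.03% of all promoters. CCAAT was found in 7 of the 15 (ABCB6, ACSL3, AKR1C1, ARL3, MYLIP, PBXIP1 and SCD), which include 5 of the 9 risen genes with a sequence, and in 33.04% of all promoters. A sterol regulatory element of the form TCACNCCAC was found in 0 of the 15 and in 0.8753% of all promoters. The motifs do not overlap in the sequences printed, and such matches describe letters only.

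MYLIP, at chr6:16129086-16148248 on the plus strand, encodes a ubiquitin ligase that sends the LDL receptor to degradation and is a target of the oxysterol receptor LXR. MYLIP had 32.2 and 34.4 CPM with ferrostatin-1 and 26.0 and 26.9 CPM with liproxstatin-1, against 20.3, 17.3 and 17.8 CPM in controls. With TNF, MYLIP had 29.8, 30.5 and 31.1 CPM with ferrostatin-1 and 28.1 and 28.5 CPM with liproxstatin-1, against 21.2 and 21.4 CPM with TNF alone. Libraries of 1 group lay close together and the ferrostatin-1 libraries were highest in each state, with a log2 fold change over both states of 0.59 (SE 0.086, adjusted p = 0.0228). Of the 14 LXR targets tested, 2 passed, MYLIP and SCD, against 0.0902% of all genes. The cholesterol exporter ABCG1 had 94.6 and 100.3 CPM with ferrostatin-1 and 66.5 and 72.8 CPM with liproxstatin-1, against 35.0, 20.3 and 44.9 CPM in controls. With TNF, ABCG1 had 62.3, 63.5 and 62.5 CPM with ferrostatin-1 and 45.5 and 56.3 CPM with liproxstatin-1, against 41.1 and 33.6 CPM with TNF alone. Its groups did not overlap and its log2 fold change was 1.00 (SE 0.19, adjusted p = 0.0584). The exporter ABCA1 had a log2 fold change of 1.51 (SE 0.32, adjusted p = 0.0832), and its liproxstatin-1 libraries without TNF, at 6.44 and 7.69 CPM, overlapped the controls at 4.96, 7.25 and 5.38 CPM. The phospholipid-remodelling enzyme LPCAT3 had 0.33 (SE 0.082, adjusted p = 0.1) with no overlap. Over the 14 targets, 4 were higher in every compound library of both states (28.6%), against 1.77% of all genes, and the median log2 fold change was 0.40 against -0.02 over all genes. Their median was 0.46 without TNF and 0.29 with TNF. Of the 14, 9 had a log2 fold change above 0 (10596 of all 22179 genes), so the list did not move as a whole. For ferrostatin-1, 5 of the 14 were called higher and 1 lower (70 and 300 of all 22179 genes).

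**Figure D2:**
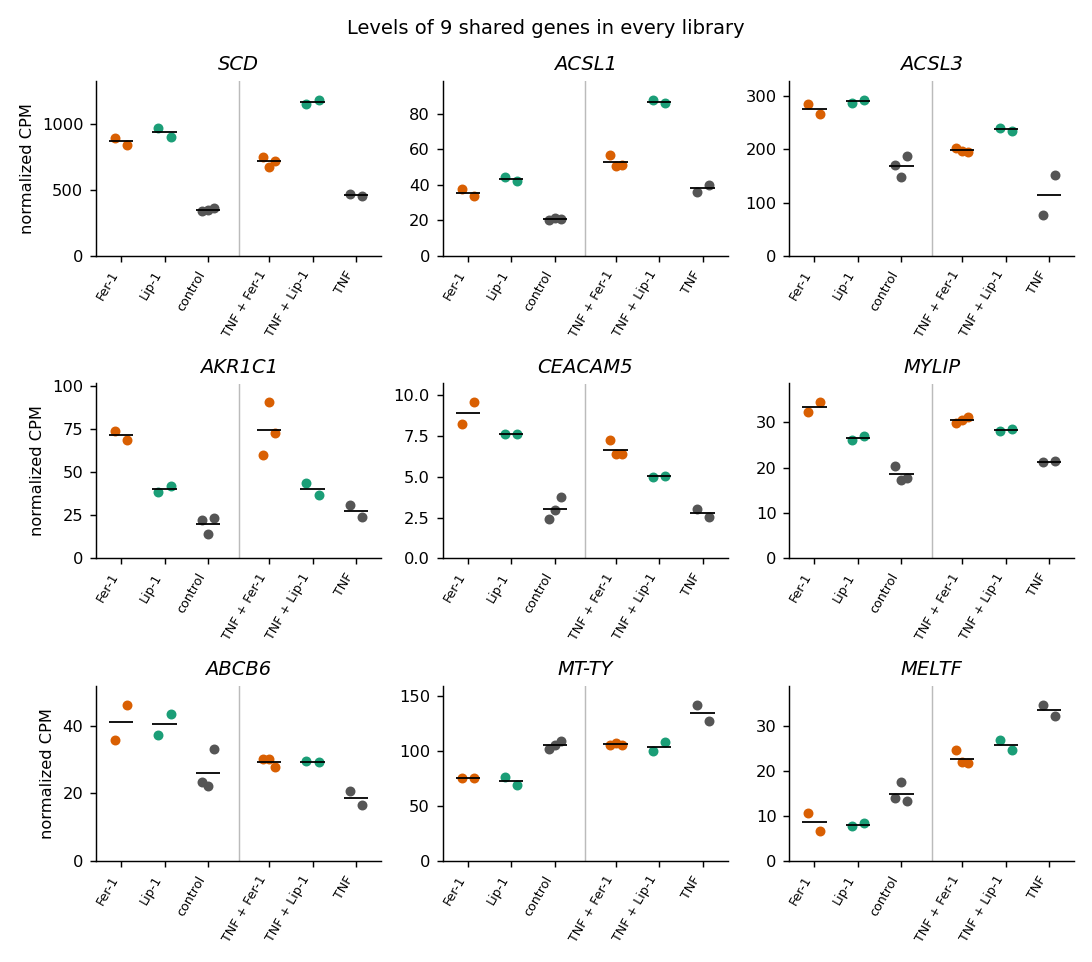
Normalized CPM (vertical axes, from 0) of 9 of the 20 genes in each library, with points for libraries and lines for group means. Groups without TNF stand left of the grey line and groups with TNF right of it, ferrostatin-1 in orange, liproxstatin-1 in green and libraries without a compound in grey. SCD ranged from 675 to 1181 CPM over the 9 compound libraries and from 341 to 471 CPM over the other 5.

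AKR1C1, at chr10:4963253-4983283 on the plus strand, encodes an aldo-keto reductase that reduces steroids and lipid-derived aldehydes and is a classic NRF2 target. It had 74.1 and 69.1 CPM with ferrostatin-1 and 38.9 and 42.3 CPM with liproxstatin-1, against 22.5, 14.4 and 23.6 CPM in controls. With TNF, AKR1C1 had 60.2, 90.8 and 72.8 CPM with ferrostatin-1 and 43.7 and 37.1 CPM with liproxstatin-1, against 30.8 and 24.0 CPM with TNF alone. Ferrostatin-1 libraries stood above liproxstatin-1 libraries, which stood above the baseline, in both states. AKR1C1 showed the largest rise of the 20 genes, 2.51-fold (1.33 on the log2 scale, SE 0.23), and the adjusted p nearest the threshold (0.0491). The gene has close paralogs whose reads may be shared, so its level is uncertain. The paralog AKR1C2 had a log2 fold change of 1.296 (SE 0.28, adjusted p = 0.0837). AKR1B10, of the same family, had 0.85 (SE 0.19, adjusted p = 0.0939). The groups did not overlap for either gene, but with TNF the gaps were narrow. The lowest compound library with TNF had 13.1 CPM of AKR1C2, against 12.5 CPM in TNF library 1. For AKR1B10 the same libraries had 40.3 and 40.2 CPM.

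Of the 42 NRF2 targets tested, 3 passed the test (AKR1C1, ME1 and IDH1), against 0.0902% of all genes. In every compound library of both states 8 of the 42 were higher (19.0%, against 1.77% of all genes). The other 5 of these 8 were AKR1C2, AKR1B10, the glutathione-synthesis subunit GCLC at 0.58 (adjusted p = 0.0839), the UDP-glucose dehydrogenase UGDH at 0.46 (adjusted p = 0.0955) and the reductase PTGR1 at 0.39 (adjusted p = 0.1). The list's median log2 fold change was 0.16, against -0.02 over all genes, but it was 0.40 without TNF and -0.04 with TNF, and 2 members were called for the difference between the states. By compound, 11 of the 42 were called for ferrostatin-1, all higher, against 70 of all 22179 genes called higher and 300 lower. By edgeR's test 0 of the 42 were called for liproxstatin-1 (0.0631% of all genes). For liproxstatin-1, 13 of the 42 had an unadjusted p below 0.05 and DESeq2 called 7 (388 of all 22179 genes). Better-known members had other values. The quinone reductase NQO1 had a log2 fold change of 0.03 (adjusted p = 0.934), with 0.35 without TNF (adjusted p = 0.176) and -0.33 with TNF (adjusted p = 0.0831). The haem oxygenase HMOX1 had -0.45 (adjusted p = 0.27) and the glutathione-synthesis subunit GCLM had 0.34 (adjusted p = 0.188).

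CYP4F12, at chr19:15673018-15697148 on the plus strand, belongs to the cytochrome P450 family that hydroxylates fatty acids at their far end. It had 6.89 and 7.36 CPM with ferrostatin-1 and 5.51 and 4.93 CPM with liproxstatin-1, against 3.11, 2.58 and 3.41 CPM in controls. With TNF, CYP4F12 had 10.9, 9.84 and 12.2 CPM with ferrostatin-1 and 10.3 and 10.6 CPM with liproxstatin-1, against 7.04 and 6.62 CPM with TNF alone. Groups did not overlap within a TNF state, at a log2 fold change of 0.85 (SE 0.13, adjusted p = 0.0256), and TNF alone raised the gene by 1.17 on the log2 scale over controls (adjusted p = 0.000433). Near-identical CYP4F genes make its count uncertain. ABCB6, at chr2:219209772-219218958 on the minus strand, encodes an ATP-binding cassette transporter linked to porphyrin transport. It had 35.8 and 46.2 CPM with ferrostatin-1 and 37.2 and 43.5 CPM with liproxstatin-1, against 23.3, 22.0 and 33.0 CPM in controls. With TNF, ABCB6 had 30.0, 30.1 and 27.7 CPM with ferrostatin-1 and 29.6 and 29.1 CPM with liproxstatin-1, against 20.8 and 16.6 CPM with TNF alone. Its groups did not overlap, though control library 3 came close to the lowest compound library, and it rose by 0.64 (SE 0.10, adjusted p = 0.0367). The 4 log2 fold changes over baseline of ABCB6 lay within 0.63 to 0.65, and none was called by itself.

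CEACAM5, at chr19:41708585-41729345 on the plus strand, encodes carcinoembryonic antigen, an adhesion glycoprotein of the colon surface. It had 8.27 and 9.58 CPM with ferrostatin-1 and 7.61 and 7.63 CPM with liproxstatin-1, against 2.42, 2.97 and 3.76 CPM in controls. With TNF, CEACAM5 had 7.25, 6.39 and 6.38 CPM with ferrostatin-1 and 5.00 and 5.05 CPM with liproxstatin-1, against 3.04 and 2.55 CPM with TNF alone. Every compound library was above every library without a compound, and the rise was 2.44-fold (1.28 on the log2 scale, SE 0.15), with the smallest adjusted p of all genes tested (0.0056). Of the 20 absorptive enterocyte markers tested, it alone passed (0.0902% of all genes), and 3 (15.0%, against 1.77% of all genes) were higher in every compound library of both states. The others were the surface peptidase DPP4 at 0.63 (adjusted p = 0.102) and the keratin KRT20 at 0.48 (adjusted p = 0.119). The median over these markers was 0.38 on the log2 scale in the pooled model. By compound it was 0.04 for ferrostatin-1, with 3 called higher and 1 lower, and 0.50 for liproxstatin-1, with 2 called higher. The difference, liproxstatin-1 minus ferrostatin-1, was called above 0 in 4 of the 20 (161 of all 22179 genes). TOMM40P4, at chr2:131723253-131724279 on the minus strand, is a pseudogene of a mitochondrial import channel, and reads of its parent gene may enter its count. It had 2.69 and 3.24 CPM with ferrostatin-1 and 2.59 and 2.60 CPM with liproxstatin-1, against 1.80, 1.97 and 1.71 CPM in controls. With TNF, TOMM40P4 had 2.32, 2.28 and 2.39 CPM with ferrostatin-1 and 2.36 and 2.25 CPM with liproxstatin-1, against 1.10 and 1.16 CPM with TNF alone. The groups did not overlap (0.79 on the log2 scale, SE 0.13, adjusted p = 0.0367), and libraries with TNF and a compound stood above the controls.

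The 9 fallen genes included 3 mitochondrial tRNA genes that lie beside each other on the minus strand, MT-TY, MT-TC and MT-TN. Their sequences and that of MT-TA, the next gene of the cluster, are shown because all 4 were lower in every compound library of both states, from GENCODE v29 on GRCh38, where their positions equal those of the deposited table. Each runs 5′ to 3′ on its own strand, and the capital letter marks the base that MT-TY and MT-TC share.
MT-TY, tyrosine tRNA, at chrM:5826-5891, minus strand: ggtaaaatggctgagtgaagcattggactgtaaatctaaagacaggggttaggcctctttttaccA
MT-TC, cysteine tRNA, at chrM:5761-5826, minus strand: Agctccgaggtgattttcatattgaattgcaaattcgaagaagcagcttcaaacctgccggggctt
MT-TN, asparagine tRNA, at chrM:5657-5729, minus strand: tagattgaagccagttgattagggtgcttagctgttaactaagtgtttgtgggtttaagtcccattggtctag
MT-TA, alanine tRNA, at chrM:5587-5655, minus strand: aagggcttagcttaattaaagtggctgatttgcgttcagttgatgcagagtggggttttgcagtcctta
MT-TY had 75.1 and 75.2 CPM with ferrostatin-1 and 76.3 and 69.0 CPM with liproxstatin-1, against 102, 105 and 109 CPM in controls. With TNF, MT-TY had 105, 107 and 106 CPM with ferrostatin-1 and 100.0 and 108 CPM with liproxstatin-1, against 142 and 127 CPM with TNF alone. The groups did not overlap in either state, and the cells with TNF and a compound stood at about the level of controls. MT-TC had 60.2 and 58.5 CPM with ferrostatin-1 and 60.0 and 54.8 CPM with liproxstatin-1, against 78.1, 76.4 and 82.4 CPM in controls. With TNF, MT-TC had 83.7, 87.1 and 86.0 CPM with ferrostatin-1 and 78.3 and 83.8 CPM with liproxstatin-1, against 116 and 103 CPM with TNF alone. Again no compound library overlapped its baseline. MT-TN had 83.0 and 92.9 CPM with ferrostatin-1 and 89.5 and 89.9 CPM with liproxstatin-1, against 118, 111 and 128 CPM in controls. With TNF, MT-TN had 127, 138 and 139.7 CPM with ferrostatin-1 and 131 and 132 CPM with liproxstatin-1, against 173 and 156 CPM with TNF alone. MT-TN too was lower in each compound library than in each library of its baseline.

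The log2 fold changes over both TNF states were -0.44 (SE 0.057, adjusted p = 0.00891) for MT-TY, -0.41 (SE 0.056, adjusted p = 0.0136) for MT-TC and -0.37 (SE 0.059, adjusted p = 0.0367) for MT-TN. MT-TA lies next to them on the same strand and did not overlap between groups either, but missed the threshold (-0.34, SE 0.063, adjusted p = 0.0569). Of the 22 mitochondrial tRNA genes, a list chosen after the values were seen, 3 passed the test (0.0902% of all genes), 4 were lower in every compound library of both states (18.2%, against 1.69% of all genes) and 10 had a log2 fold change above 0. Their median was -0.08. The other 4 tRNA genes of the minus strand in the model, MT-TS1, MT-TQ, MT-TE and MT-TP, had -0.14, 0.33, 0.03 and 0.03. Of the 13 mitochondrially encoded mRNAs, 0 passed edgeR's test, with a median of -0.01. An unadjusted p below 0.05 was found in 4 (3783 of all 22179 genes), and DESeq2 called 2 (1182 of all genes). The libraries were made from poly(A) RNA, so these counts are not a measure of mature tRNA, and MT-TY and MT-TC, whose genes share 1 base, are not independent of each other in sequence.

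**Figure D3:**
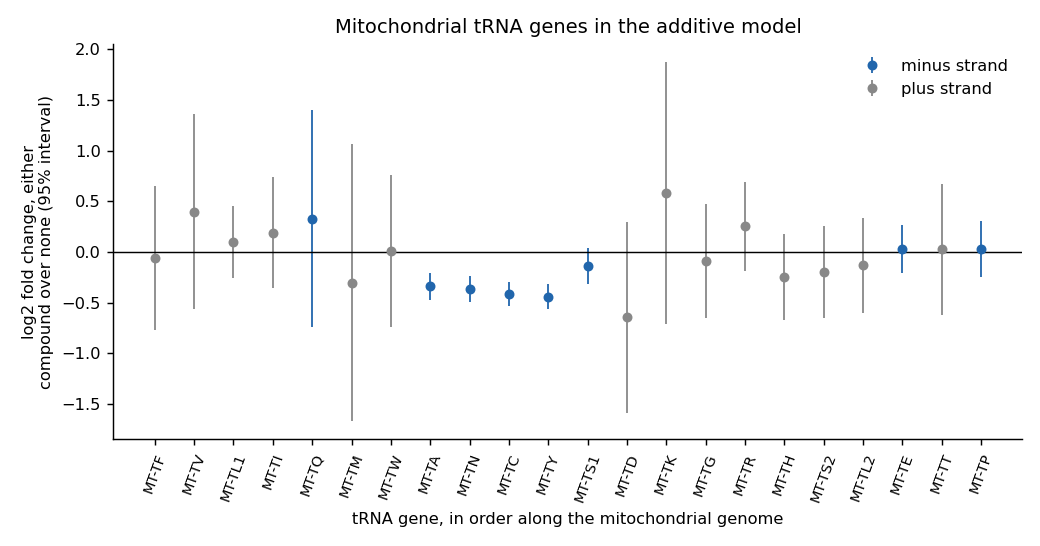
Log2 fold change of either compound over none in the additive model (vertical axis) for the 22 mitochondrial tRNA genes, in their order along the mitochondrial genome, with 95% intervals. Blue points are genes of the minus strand and grey points of the plus strand. The neighbours MT-TA, MT-TN, MT-TC and MT-TY lie between -0.34 and -0.44 with intervals below 0.

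The other 6 fallen genes encode proteins of different kinds. MELTF, at chr3:196988621-197029817 on the minus strand, encodes melanotransferrin, an iron-binding surface protein of the transferrin family. It had 10.6 and 6.54 CPM with ferrostatin-1 and 7.67 and 8.48 CPM with liproxstatin-1, against 13.9, 17.5 and 13.3 CPM in controls. With TNF, MELTF had 24.6, 21.9 and 21.7 CPM with ferrostatin-1 and 27.0 and 24.8 CPM with liproxstatin-1, against 34.7 and 32.2 CPM with TNF alone. MELTF fell most of the 9 genes, to 0.625 of its baseline (-0.68, SE 0.12, adjusted p = 0.0488), with no overlap. TNF alone raised it by 1.17 on the log2 scale over controls (adjusted p = 0.00137), and cells with TNF and a compound stayed above the controls. TMEM187, at chrX:153972754-153983194 on the plus strand, had 10.5 and 10.8 CPM with ferrostatin-1 and 9.85 and 9.95 CPM with liproxstatin-1, against 16.0, 22.0 and 13.6 CPM in controls. With TNF, TMEM187 had 17.2, 18.1 and 15.8 CPM with ferrostatin-1 and 17.4 and 15.9 CPM with liproxstatin-1, against 26.7 and 23.6 CPM with TNF alone. Its groups did not overlap (-0.66, SE 0.10, adjusted p = 0.0303). PBXIP1, at chr1:154944076-154956121 on the minus strand, encodes a partner of PBX homeodomain factors. It had 52.6 and 50.5 CPM with ferrostatin-1 and 65.7 and 60.4 CPM with liproxstatin-1, against 76.7, 87.1 and 67.0 CPM in controls. With TNF, PBXIP1 had 75.6, 75.9 and 67.2 CPM with ferrostatin-1 and 78.2 and 79.6 CPM with liproxstatin-1, against 132 and 102 CPM with TNF alone. The lowest control lay just above liproxstatin-1 library 1, and the log2 fold change was -0.52 (SE 0.091, adjusted p = 0.0478).

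ARL3, at chr10:102673731-102714397 on the minus strand, encodes a small GTPase that releases lipid-modified cargo in cilia. It had 13.1 and 11.2 CPM with ferrostatin-1 and 11.7 and 12.4 CPM with liproxstatin-1, against 17.7, 20.8 and 16.4 CPM in controls. With TNF, ARL3 had 17.3, 18.1 and 16.7 CPM with ferrostatin-1 and 18.1 and 16.0 CPM with liproxstatin-1, against 23.0 and 21.5 CPM with TNF alone. ARL3 was lower in each compound library than in each library of its baseline (-0.49, SE 0.082, adjusted p = 0.0396). IGFBP4, at chr17:40443450-40457725 on the plus strand, encodes a secreted protein that binds insulin-like growth factors. It had 162 and 163 CPM with ferrostatin-1 and 174 and 174 CPM with liproxstatin-1, against 212, 241 and 197 CPM in controls. With TNF, IGFBP4 had 147, 129 and 127 CPM with ferrostatin-1 and 156 and 153 CPM with liproxstatin-1, against 243 and 192 CPM with TNF alone. The gap was wider with TNF than without for IGFBP4, but the difference between the states was not called (-0.25, adjusted p = 0.336), and the log2 fold change over both was -0.48 (SE 0.082, adjusted p = 0.0478). CRIP2, at chr14:105472962-105480162 on the plus strand, encodes a LIM-domain protein. It had 84.3 and 78.9 CPM with ferrostatin-1 and 81.1 and 69.3 CPM with liproxstatin-1, against 95.0, 116 and 97.2 CPM in controls. With TNF, CRIP2 had 72.7, 67.6 and 72.6 CPM with ferrostatin-1 and 72.6 and 67.1 CPM with liproxstatin-1, against 105 and 87.6 CPM with TNF alone. Its groups did not overlap and it fell by 0.42 on the log2 scale (SE 0.072, adjusted p = 0.0478).

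Set beside each other, the compounds gave 370 called genes for ferrostatin-1 (1.67% of genes tested) and 14 for liproxstatin-1 (0.0631%), each over no compound and blocked by TNF. Both coefficients use the same 5 libraries without a compound, and the 20 genes were chosen on a test that pools both. All 20 were called for ferrostatin-1 and 6 for liproxstatin-1: SCD, ACSL1, ACSL3, CEACAM5, MT-TC and MT-TY. The adjusted p of the other 14 for liproxstatin-1 lay between 0.0739 and 0.195. Compared with each other at the same dose and time over all genes, liproxstatin-1 and ferrostatin-1 differed in 190 genes (0.857%), of which 2 were among the 20. ACSL1 rose more with liproxstatin-1, 2.20-fold, than with ferrostatin-1, 1.53-fold (liproxstatin-1 minus ferrostatin-1 0.52 on the log2 scale, 95% interval 0.32 to 0.72, adjusted p = 0.017). AKR1C1 rose less with liproxstatin-1, 1.75-fold, than with ferrostatin-1, 3.13-fold (-0.84, 95% interval -1.20 to -0.48, adjusted p = 0.0303). For the other 18 genes the difference between the compounds lay between -0.31 and 0.44 and was not called, with 95% intervals that reached -0.63 and 0.69 at the outside. For SCD it was 0.44 (95% interval 0.19 to 0.69, adjusted p = 0.133). For ABCB6 the log2 fold change was 0.64 with liproxstatin-1 and 0.65 with ferrostatin-1. For MT-TN it was -0.37 with liproxstatin-1 and -0.36 with ferrostatin-1.

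**Figure D4:**
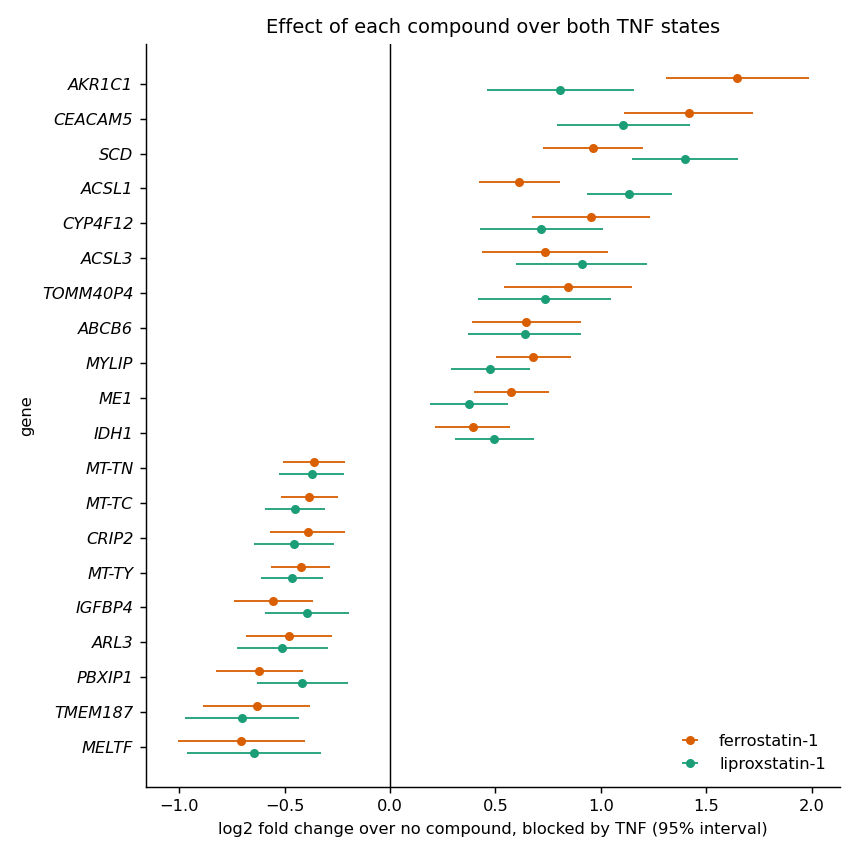
Log2 fold change of each compound over no compound, blocked by TNF (horizontal axis), for the 20 genes, with 95% intervals. Ferrostatin-1 is in orange and liproxstatin-1 in green. Both points lie on the same side of 0 for every gene, and the points are farthest apart for AKR1C1 (1.65 with ferrostatin-1 and 0.81 with liproxstatin-1).

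By TNF state, 67 genes were called for a compound without TNF (0.302%) and 2108 with TNF (9.50%). Of the 20 genes, 11 were called without TNF and 16 with it. The missed ones had adjusted p between 0.0603 and 0.135 without TNF and between 0.0516 and 0.0751 with TNF. The difference of the compound effect with TNF minus without was called in 244 genes (1.10%) and in 0 of the 20 by edgeR's test. Of the 20, 1 had an unadjusted p below 0.05 and 1 was called by DESeq2. The difference lay between -0.41 and 0.43 over the 20, with 95% intervals that reached -1.28 and 0.92. Against its own baseline and by single compound, 9 of the 20 were called for ferrostatin-1 without TNF (0.564% of all genes), 4 for liproxstatin-1 without TNF (0.0586%), 13 for ferrostatin-1 with TNF (5.52%) and 2 for liproxstatin-1 with TNF (0.343%). CEACAM5 was called in 3 of these 4 comparisons and 6 genes (ABCB6, ARL3, CRIP2, MELTF, MT-TN and TMEM187) in 0 of them. TNF over control was called in 10 of the 20 genes, 8 higher and 2 lower, against 14.7% of all genes, 8.24% higher and 6.44% lower. These comparisons share the control and TNF libraries with the pooled test. TNF alone gave log2 fold changes of 0.40 for SCD (adjusted p = 0.00392), 0.87 for ACSL1 (adjusted p = 0.000121) and 0.35 for MT-TY (adjusted p = 0.0166). It gave -0.36 for IDH1 (adjusted p = 0.0174) and -0.69 for TOMM40P4 (adjusted p = 0.0264).

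Few genes of ferroptosis itself were called, as were few of all genes (0.0902%). Of 32 suppressors, 2 passed the test, both higher (SCD and ACSL3), against 0.0496% of all genes called higher. The median log2 fold change of the 32 was 0.03 (0.19 without TNF and -0.05 with TNF). Of 31 drivers and markers, 0 passed edgeR's test, 8 had an unadjusted p below 0.05 and 4 were called by DESeq2, all higher, and the median was -0.02. Over all 22179 genes, 3783 had an unadjusted p below 0.05 and DESeq2 called 1182. Of these drivers and markers, 6 were higher in every compound library of both states (19.4%, against 1.77% of all genes): ACSL4, LPCAT3, SAT1, IREB2, STEAP3 and DPP4, at adjusted p between 0.1 and 0.266. GPX4, the peroxidase that reduces lipid hydroperoxides, had 219.9 and 222 CPM with ferrostatin-1 and 238 and 231 CPM with liproxstatin-1, against 225, 225 and 217 CPM in controls. With TNF, GPX4 had 218, 213 and 195 CPM with ferrostatin-1 and 258 and 226 CPM with liproxstatin-1, against 367 and 256 CPM with TNF alone. GPX4 libraries overlapped in both states, and the pooled difference was not called (-0.21, SE 0.10, adjusted p = 0.319). By state, GPX4 fell with TNF (-0.49, adjusted p = 0.0308), where TNF library 1 stood far above the other, and was at 0.03 without TNF (adjusted p = 0.949). In a check added after the values were seen, that fall of GPX4 was -0.21 (adjusted p = 0.556) without TNF library 1 and -0.73 (adjusted p = 0.000112) without TNF library 3, and its adjusted p was 0.0383 to 0.0638 without any 1 of the 5 libraries with TNF and a compound. The difference between the states was not called for GPX4 (-0.52, adjusted p = 0.0878). The cystine transporter SLC7A11 had 336 and 375 CPM with ferrostatin-1 and 353 and 327 CPM with liproxstatin-1, against 283, 184 and 304 CPM in controls. With TNF, SLC7A11 had 109.6, 138 and 132 CPM with ferrostatin-1 and 91.8 and 102 CPM with liproxstatin-1, against 37.4 and 109 CPM with TNF alone. SLC7A11 was above all controls without TNF, while TNF library 3 lay among the libraries with TNF and a compound (0.53, SE 0.20, adjusted p = 0.204). ACSL4, which activates polyunsaturated acids, had 0.49 (SE 0.21, adjusted p = 0.257), with 17.3 and 58.8 CPM in the TNF libraries. The coenzyme Q reductase AIFM2 had 0.04 in the pooled model (adjusted p = 0.925), 0.41 without TNF (adjusted p = 0.157) and -0.38 with TNF (adjusted p = 0.0762). The transferrin receptor TFRC had 0.36 in the pooled model (adjusted p = 0.506), -0.07 without TNF and 0.93 with TNF (adjusted p = 0.0818).

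Among the lipid lists, 2 of 20 acyl-CoA synthetases and phospholipid remodelling genes passed the test, both higher, with a median of 0.01, and 2 of 26 genes of fatty acid synthesis and desaturation rose, with a median of 0.13. Over all genes 0.0496% were called higher. ACACA, the enzyme that commits carbon to fatty acid synthesis, had 0.62 (adjusted p = 0.0569) with no overlap. Of 27 genes of cholesterol synthesis, 0 passed edgeR's test in the pooled model, 4 had an unadjusted p below 0.05 and 2 were called by DESeq2, with a median of 0.12. Of all 22179 genes, 3783 had an unadjusted p below 0.05 and 1182 were called by DESeq2. By compound, the median of the 27 was -0.07 for ferrostatin-1 and 0.41 for liproxstatin-1. For ferrostatin-1 edgeR's test called 0 and DESeq2 4, and at an unadjusted p below 0.05 2 were higher and 9 lower. For liproxstatin-1 edgeR's test called 2, both higher, DESeq2 called 13 (388 of all genes), and 14 were higher at that unadjusted p. Liproxstatin-1 minus ferrostatin-1 was called above 0 in 9 of the 27 (161 of all genes). Of 14 targets of the aryl hydrocarbon receptor, 0 passed by either tool in the pooled model and 3 had an unadjusted p below 0.05. CYP1A1 among them had 5.94 and 6.71 CPM with ferrostatin-1 and 84.9 and 80.4 CPM with liproxstatin-1, against 89.6, 114 and 65.1 CPM in controls, so only the ferrostatin-1 libraries were apart.

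**Figure D5:**
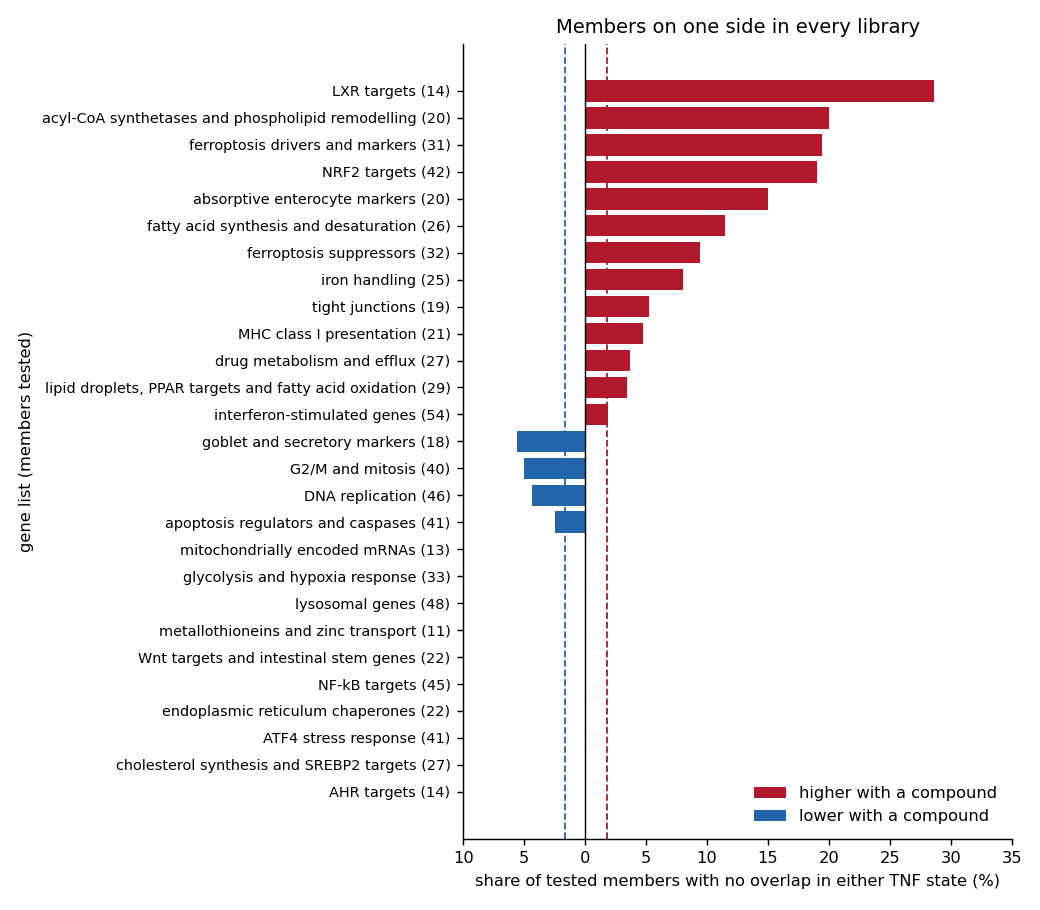
Share of tested members of each gene list (horizontal axis, in %) that were higher (red, to the right) or lower (blue, to the left) in every compound library than in every library without a compound, within each TNF state. Dashed lines give the same share over all 22179 genes, 1.77% higher and 1.69% lower. LXR targets lie highest at 28.6%, from 4 of 14 members, and lists share members.

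Other lists held members called within a TNF state and none called in the pooled model, and their medians differed in sign between the states. Over all 22179 genes, 3783 had an unadjusted p below 0.05 in the pooled model and DESeq2 called 1182. With TNF 4.32% of all genes were called higher and 5.19% lower, and 1.10% differed between the states. Whether the counts below differ from these shares was not tested. Of 46 DNA replication genes, 0 passed edgeR's test in the pooled model (median -0.19), where 17 had an unadjusted p below 0.05 and 4 were called by DESeq2. The median of the 46 was -0.53 without TNF and 0.22 with TNF. Of these genes, 7 were called lower without TNF (0.248% of all genes), 9 higher with TNF (4.32% of all genes), and 13 differed between the states. MCM5, a subunit of the replicative helicase, had a log2 fold change of -0.74 without TNF (adjusted p = 0.017) and of 0.19 with TNF (adjusted p = 0.306). Of 41 genes of the ATF4 stress response, 0 passed edgeR's test in the pooled model (median -0.10), where 8 had an unadjusted p below 0.05 and 1 was called by DESeq2. With TNF 14 of these 41 fell (5.19% of all genes), and 12 differed between the states, with a median of 0.36 without TNF and -0.58 with TNF. CHAC1, which degrades glutathione, had 0.50 without TNF (adjusted p = 0.416) and -1.96 with TNF (adjusted p = 0.00703). Of 40 genes of G2/M and mitosis, 0 passed edgeR's test in the pooled model, where 12 had an unadjusted p below 0.05 and DESeq2 called 7, all lower. With TNF 9 of these 40 rose and 3 differed between the states, with a median of -0.41 without TNF and 0.56 with TNF. Of 54 interferon-stimulated genes, 0 passed edgeR's test in the pooled model (median 0.16), where 18 had an unadjusted p below 0.05 and DESeq2 called 13, all higher. With TNF 2 of these 54 rose and 4 fell, 3 differed between the states, and the median was 0.46 without TNF and -0.22 with TNF. Of 45 NF-kB targets, 0 passed edgeR's test in the pooled model (median -0.06), where 8 had an unadjusted p below 0.05 and DESeq2 called 4, all lower. With TNF 5 of these 45 fell, and the median was 0.06 without TNF and -0.28 with TNF. All list values with TNF, and the differences between the states, rest on 2 TNF libraries that stood apart from each other. How far they depend on TNF library 1 was not tested.

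A few keratin genes separated libraries in another way. KRT81 had 57.1 and 1.45 CPM with ferrostatin-1 and 1.05 and 13.997 CPM with liproxstatin-1, against 48.1, 47.6 and 48.4 CPM in controls. With TNF, KRT81 had 1.47, 1.73 and 1.79 CPM with ferrostatin-1 and 13.5 and 1.85 CPM with liproxstatin-1, against 43.7 and 50.4 CPM with TNF alone. Of the 9 compound libraries, ferrostatin-1 library 1 alone was as high as those without a compound, and this gene was not called (-2.46, SE 0.80, adjusted p = 0.151). In that library all 20 shared genes stood on the side of the other compound libraries, which restates their lack of overlap. When the KRT81 level was added to the model as a covariate, 18 genes met the rule and 1 of the 20, SCD, was among them. With the covariate the log2 fold changes of the 20 were 0.636 (MELTF) to 1.302 (IDH1) times those reported, larger in 13, and the SEs were 1.38 to 1.64 times as large. KRT81 and the compound are nearly the same split of the libraries, so what goes with each cannot be told apart in that model.

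Just inside the threshold stood PBXIP1 (adjusted p = 0.0478), MELTF (0.0488) and AKR1C1 (0.0491). Just outside stood AGBL5, SLC37A4, HSD17B8 and CDK2, all with an adjusted p of 0.0507 and log2 fold changes of -0.33, -0.41, -0.55 and -0.41, and SYTL5 at 0.69 (adjusted p = 0.0569). All 5 separated the libraries in both TNF states, so the count of 20 depends on where the line falls. How often each gene met the rule when a library was left out or a setting changed differed widely among the 20. Over 20 other settings SCD met it in 20, CEACAM5 and MT-TY in 19, MT-TC in 18, MYLIP in 14, CYP4F12 in 13 and TMEM187 in 10. ACSL1 met it in 8, ACSL3 in 7, ABCB6, ARL3, MELTF and MT-TN in 6, CRIP2, IDH1 and TOMM40P4 in 5, and AKR1C1, IGFBP4, ME1 and PBXIP1 in 4. The direction of each of the 20 was the same in all 20 settings, which their choice by sign and their lack of overlap made likely beforehand.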

How the data were processed

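Libraries of poly(A) RNA were stranded by dUTP and read from both ends, per the labels' protocols. The authors deposited whole-number counts of 36555 gene IDs in 14 libraries, and 14 FPKM columns that were not used. The submitters' processing notes name edgeR, DESeq2, StringTie 1.3.4d, HISAT2 2.0.4 and cutadapt 1.9, with no role. Build, annotation, counting program and strand setting were not given in the sources used here, and 1 count is not known to be 1 fragment.

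Groups came from the titles. In the groups TNF, ferrostatin-1 and liproxstatin-1 the columns carry the numbers 1 and 3 and the titles 1 and 2, so matching was by group, and library numbers are those of the columns. The reason why 4 groups hold 2 libraries was not given in the sources used here. Libraries of a group differed by at least 16.1 in chi-square per degree of freedom, so none was counted as a duplicate.

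Counts were scaled by TMM with edgeR 4.0.16 in R 4.3.3 (factors 0.947 to 1.05), low genes were removed by filterByExpr over the 6 groups (22179 genes left), and quasi-likelihood tests used Benjamini-Hochberg adjustment over all genes and a threshold of 0.05. Models were TNF plus compound (pooled), the 4 cells of TNF and compound, TNF plus each compound, and 6 group means. SE is the log2 fold change divided by the square root of F, and intervals are 95% t intervals. Normalized CPM uses the same factors. The tests were checked on simulated counts. Alternatives were other scaling, DESeq2 1.42.0, 2 other filters (none, or at least 1 CPM in 3 libraries), library number as a block, KRT81 as a covariate, and each library left out.

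Named genes were up to 15 shared rises and 15 shared falls with no overlap and a mean of 50 counts or more, 4 shared members or fewer from each list, and a set of ferroptosis, lipid and marker genes. Named too were the 6 genes with the smallest p for the compound effect with TNF minus without. The 6 with the smallest p for liproxstatin-1 minus ferrostatin-1 were added likewise. Genes named beyond these (list members with no overlap, the mitochondrial tRNA genes and those beside the threshold) were picked with their values in view. The members, the 32 lists and the rules were chosen with earlier results of these data known.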

Additional observations from a re-analysis of the deposited data

Results flagged for a closer look

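Among 58 genes described by library, 5 of 116 groups of 4 or 5 compound libraries held a library far from the others. The rule flags about 1 in 20 groups by chance when all libraries of a group are alike. These groups mix both compounds, so that rate does not apply to them. TOMM40P4 had 3.24 CPM in ferrostatin-1 library 3, above the other compound libraries without TNF. MT-TY had 69.0 CPM in liproxstatin-1 library 3, below the other compound libraries without TNF. HMOX1 had 29.7 CPM in ferrostatin-1 library 1. With TNF, liproxstatin-1 library 1 had 13.5 CPM of KRT81 and 31.0 CPM of KRT7, above the other libraries with TNF and a compound.

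For 9 named genes the effect of a compound with TNF minus without was called (edgeR's quasi-likelihood test), and none of them is among the 20 shared genes. AC159540, HELLPAR, WDR76, FOS, DDIT3 and MAT2A were named for having the smallest p-values of this test, so their calls restate that choice. On the log2 scale the difference was 2.57 for AC159540 and 3.22 for HELLPAR, both noncoding, 1.37 for WDR76 and 0.93 for the replication gene MCM5. It was -1.20 for the early response gene FOS, -2.42 for the stress factor DDIT3, -2.46 for CHAC1, -1.23 for the S-adenosylmethionine synthase MAT2A and -1.05 for FTL, the ferritin light chain.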

How the results depend on the processing

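The 20 shared genes kept their direction in every setting run. Their choice by sign and their lack of overlap made this likely, and nearly fixed it with 1 library left out. The number of shared genes did not hold: it was 14 with relative log expression scaling, 6 with no filter on low counts, 51 with a stricter filter, 1163 with DESeq2, 18 with KRT81 as a covariate, 11 with a replicate block by library number (8 of the 20 among them), and 20 with no overlap in place of the signs. For the pooled model all genes called numbered 14, 6, 51, 1182, 18 and 11 under the same settings, and 442 (138 higher, 304 lower) for the mean of 4 group contrasts. Leaving out 1 library at a time gave 3 to 56 for both counts. With no filter, 21 genes were called without TNF, 720 with TNF, 77 for the difference between states and 222 for ferrostatin-1. With the stricter filter, 137 were called without TNF and 729 for the difference. DESeq2 called 827 without TNF, 4398 with TNF, 2697 for the difference, 1446 for ferrostatin-1, 388 for liproxstatin-1 and 516 between the compounds. The replicate block left 1 gene without TNF, 1040 with TNF, 0 for the difference and 8 for liproxstatin-1. Same-numbered libraries of different groups correlated at -0.158 to 0.173 in their deviations from the group mean (1 of 28 pairs over 0.1). In groups of 2 libraries the deviations mirror each other, so this cannot decide whether the numbers pair the libraries. The KRT81 covariate left 23 without TNF, 15 with TNF, 13 for the difference, 41 for ferrostatin-1 and 26 for liproxstatin-1. The causes were not tested. Leaving out 1 library gave ranges of 1 to 551 without TNF, 293 to 7167 with TNF, 0 to 6395 for the difference, 93 to 750 for ferrostatin-1, 4 to 49 for liproxstatin-1 and 81 to 520 between the compounds.

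Among named genes, values near 0 and not called changed sign. TNFAIP3 was at -0.17 with the KRT81 covariate. With 1 library left out at a time the log2 fold change ranged between -0.0391 and 0.0641 for TNFAIP3, -0.0349 and 0.203 for NQO1, -0.0769 and 0.183 for AIFM2, -0.0341 and 0.343 for FTL, and -0.258 and 0.0726 for PTGS2. Of the other values of named genes over these settings, 920 kept direction and side of the threshold, 239 kept direction and lost the call, and 9 gained it. Where a group was left with 1 library, that library was taken to vary like the others. The 20 genes had mean counts of at least 149 per library, and no test at a lower depth was run.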
